A study of Mus musculus with 19 samples.

Results

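The 3 Gadd45 genes and 5 target genes of the tumour suppressor p53 were followed in bulk liver RNA-seq of mice given polyethylene (PE) microplastic particles, a diet rich in fat, fructose and cholesterol, or both. The 8 genes, Gadd45a, Gadd45b, Gadd45g, Cdkn1a, Mdm2, Ccng1, Bax and Phlda3, were taken by symbol from the 55836 genes in the count table, and all 8 passed the filter on low counts that left 13597 genes for testing. p53 is a transcription factor that is stabilised after DNA damage and other stress, and it switches on genes that halt the cell cycle, start apoptosis or limit p53 itself. The Gadd45 genes encode small proteins, induced by growth arrest and DNA damage, that bind Cdkn1a protein, PCNA and kinases upstream of p38 and JNK. In liver they also answer to fasting, inflammation and regeneration, and not all of their control runs through p53.

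All mice were male wild-type (WT) C57BL/6 animals, 8 weeks old at the start. For 8 weeks they were fed a control diet (CD) or the diet rich in fat, fructose and cholesterol (MD). The study used MD to induce metabolic dysfunction-associated steatohepatitis (MASH). Over the same 8 weeks each mouse was gavaged daily with 2 mg of PE or with the vehicle alone (Veh), Tween 20 in water. The 19 livers gave 1 library per mouse. On CD there were 4 vehicle livers (CD + Veh) and 5 PE livers (CD + PE), and on MD 5 of each (MD + Veh and MD + PE). All carry the same batch label, B1.

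The libraries held 10398820 to 15456729 counts, and on each diet every PE library was shallower than every vehicle library. Levels are given as CPM, a library's share of counts scaled up to a fixed total, adjusted by the trimmed mean of M values (TMM). A gene was called when edgeR's quasi-likelihood test gave an adjusted p below 0.05 over all 13597 genes and the log2 fold change was at least 0.38 in size. In bulk liver, fewer cells of a type and less RNA per cell cannot be told apart. The summed level of 5 hepatocyte markers, most of it Alb, lay between 59147 and 85798 CPM in the CD groups and between 44774 and 58970 CPM in the MD groups. Cyp3a11, 1 of the 5, went the other way, from 648 CPM in CD + Veh to 2062 CPM in MD + Veh and 2938 CPM in MD + PE. MD + Veh replicate 1 held 3654 CPM of 9 skeletal muscle markers, led by Acta1, CD + PE replicate 1 held 494.7 CPM, and the other livers at most 225 CPM, those of MD + PE at most 2.76 CPM. MD + PE replicate 2 held 149.6 CPM of 6 intestinal epithelium markers, against at most 28.2 CPM in the other libraries. CD + PE replicate 2 held 467 CPM of 6 macrophage markers, and the others at most 168 CPM.

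Matches to the p53 response element near the gene starts are shown first, since the element is the sequence that p53 binds. They were searched with the changes already known, and no link between matches and changes was tested. The element is 2 adjacent 10-base half-sites, and it reads the same on both strands. The 3000 bases on each side of the start of each gene's principal transcript were searched in GRCm39 with GENCODE annotation. The C and the G of each half-site core were required, no spacer was allowed between half-sites, and up to 2 mismatches were allowed in the other 16 positions. Each match is printed 5′ to 3′ on the strand of its gene, with the distance of its middle from that start, and capitals mark the 4-base core of each half-site.
Cdkn1a, 2827 bases upstream: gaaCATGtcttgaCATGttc
Ccng1, 161 bases upstream: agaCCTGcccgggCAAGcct
Ccng1, 365 bases downstream: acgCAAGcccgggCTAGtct
Bax, 317 bases downstream: gggCAGGcccgggCTTGtcg
The Cdkn1a match lay at chr17:29309902-29309921 on the plus strand, upstream of the gene. The Ccng1 matches lay at chr11:40646289-40646308, upstream of the gene, and at chr11:40645763-40645782, in intron 1, both on the minus strand. These 3 matches had 1 mismatch each. The Bax match, at chr7:45115998-45116017 on the minus strand in intron 1, had 2 mismatches. Of 21328 protein-coding genes searched alike, 0.896% held a match with at most 1 mismatch and 5.89% with at most 2, against 2 and 3 of the 8 members. No member held a match with 0 mismatches, which 0.108% of all these genes did. For the other 5 members the search says only that no such run of letters was in this window.

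**Figure D1:**
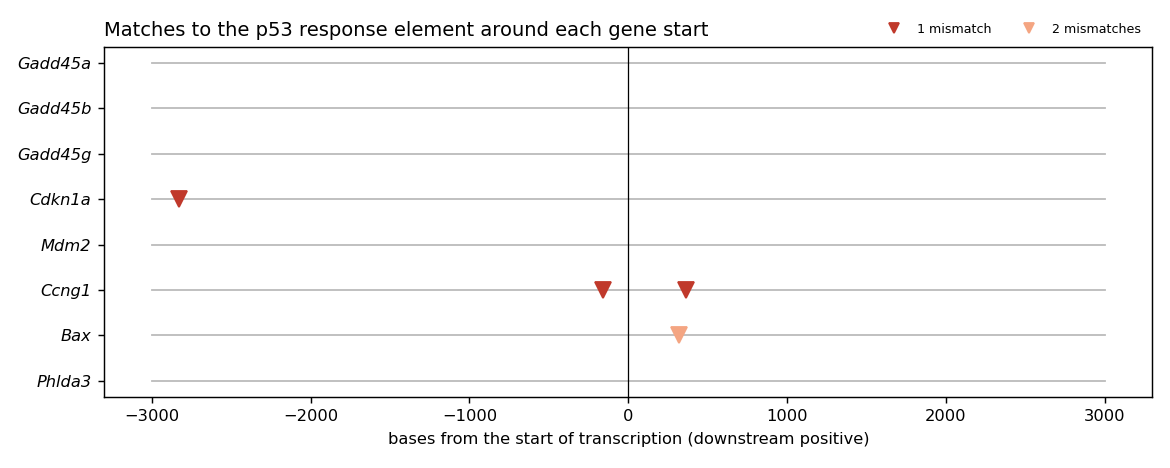
Positions of matches to the p53 response element around the start of transcription of each of the 8 genes, in bases, with downstream positive and upstream negative. Grey lines span the 3000 bases searched on each side, dark triangles are matches with 1 mismatch and the pale triangle is the match with 2. Cdkn1a has its match 2827 bases upstream, Ccng1 has 1 on each side of its start, and Bax has 1 downstream.

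Per kilobase of the principal transcript, Bax had the highest level of the 8 genes in CD + Veh, at 15.9 ± 2.15 CPM per kilobase (SD, n = 4). Gadd45g followed at 12.7 ± 6.44, Mdm2 at 9.17 ± 1.34, Gadd45a at 8.56 ± 2.00 and Ccng1 at 7.71 ± 0.246 CPM per kilobase, and each of these neighbours overlapped within their SDs. Gadd45b at 1.07 ± 0.478, Cdkn1a at 0.852 ± 0.580 and Phlda3 at 0.50 ± 0.211 CPM per kilobase formed the low end of the order. Trp53, which encodes p53, stood at 7.27 CPM per kilobase.

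Across the 8 genes, the comparison of PE with vehicle on CD called 0 members, where 2.92% of all genes were called, and 2 members had an unadjusted p below 0.05 by edgeR. DESeq2, as run here, also called 0 for PE on CD, for PE on MD and for the interaction. The diet alone, MD + Veh against CD + Veh, called 2 members, both higher, where 10.4% of all genes were called and 4.74% were called higher. PE on MD called 0 members against 1.08% of all genes, and no member had an unadjusted p below 0.05. The diet under PE, MD + PE against CD + PE, called 0 members against 4.61% of all genes, with 1 member at an unadjusted p below 0.05, and DESeq2 called 1. MD + PE against CD + Veh called 2 members, again Cdkn1a and Ccng1 and again higher, where 14.6% of all genes were called and 6.02% were called higher. The interaction, which asks whether the change after PE differed between the diets, called 0 members against 0.00735% of all genes, with 1 member at an unadjusted p below 0.05. The comparisons with CD + Veh share its 4 libraries, and the median log2 fold change of the members was 0.05 for PE on CD, 0.44 for the diet and 0.26 for both together, beside medians over all genes of 0.0064, -0.0042 and -0.0011.

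**Figure D2:**
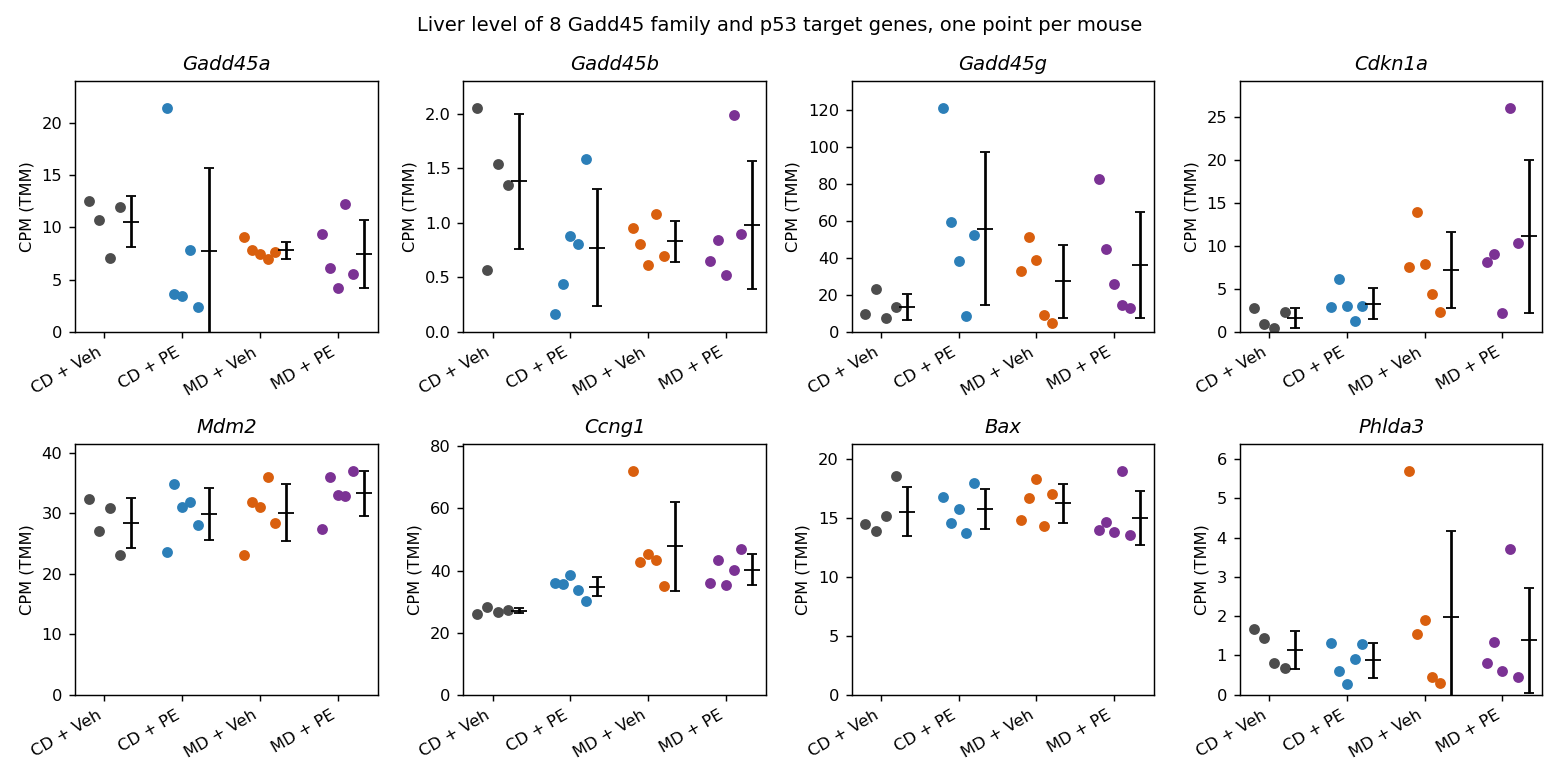
CPM (TMM) of the 8 genes in each liver, 1 panel per gene with its own axis from 0, points in replicate order within each group (n = 4 for CD + Veh and 5 for the others). Bars give the mean ± SD and are cut at 0 where the SD exceeds the mean. The 4 CD + Veh points of Ccng1 lie below every other liver, and the 5 MD + PE points of Cdkn1a span 2.17 to 26.1 CPM.

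The Gadd45 genes varied widely between mice of 1 group. Gadd45g, the family member with the highest mean per kilobase in every group, is on chr13:52000714-52002508, plus strand. In CD + Veh the livers held 9.89, 23.1, 7.45 and 13.8 CPM of Gadd45g, and in CD + PE 121, 59.4, 38.1, 8.44 and 52.6 CPM. In MD + Veh they held 32.8, 51.2, 38.7, 9.36 and 5.10 CPM, and in MD + PE 82.5, 44.8, 26.0, 14.8 and 12.9 CPM. Thus 4 of the 5 CD + PE livers lay above every CD + Veh liver and 1 lay inside their range, and the ranges of both MD groups overlapped that of CD + Veh. The mean was 13.6 ± 6.89 CPM in CD + Veh (SD, n = 4) and 55.9 ± 41.3 CPM in CD + PE (n = 5). The log2 difference after PE on CD was 2.05 by edgeR, with a 95% interval of 0.56 to 3.54 and an adjusted p of 0.120. By DESeq2, run here, it was 2.04 with an adjusted p of 0.0535, just short of the limit, and neither called Gadd45g. The study's own DESeq2 analysis, at the same limits, did report Gadd45g as up-regulated by PE on CD and not on MD. The source of this difference was not tested. After PE on MD the difference by edgeR was 0.39 (95% interval -0.93 to 1.71, adjusted p = 0.828). The 2 effects of PE differed by -1.66 (95% interval -3.62 to 0.30, adjusted p = 0.651 by edgeR). The value on CD was 0.76 with a score of clock genes as a term and 4.55 with a term that divides library numbers up to 45 from those above. The value on MD was 2.32 with that division and -0.16 without MD + PE replicate 1, and Gadd45g was called in none of these fits.

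Within MD + Veh, Gadd45g separated by the library number in the sample descriptions, which do not say what the number stands for. Replicates 1 to 3, with numbers up to 45, held 32.8 to 51.2 CPM, and replicates 4 and 5, numbered above 45 as all PE libraries are, held 9.36 and 5.10 CPM. Cdkn1a, Phlda3 and the clock score split these livers in the same way, so number and score cannot be told apart there. A restriction to libraries numbered up to 45 was chosen after the data were seen. In it, Gadd45g was 1.60 higher (log2) in the 3 MD + Veh livers than in CD + Veh. It leaves out replicates 4 and 5, with the least Gadd45g of their group, so the choice itself raised the difference. The call that followed (adjusted p = 0.0138 by edgeR) is therefore no test of the diet. On CD, PE and this division cannot be told apart, since all CD + Veh libraries are numbered up to 45 and all CD + PE libraries above it. In the fits with a term for the division, only MD + Veh sets that term, replicates 1 to 3 against 4 and 5. Those fits carry this difference over to every comparison that crosses the division, so their values are no separate measure of PE.

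Gadd45a, the stress sensor of the family best known as a p53 target, is on chr6:67012070-67014441, minus strand. Its levels were 12.5, 10.7, 7.05 and 11.99 CPM in CD + Veh, 21.4, 3.596, 3.44, 7.83 and 2.37 CPM in CD + PE, 9.13, 7.80, 7.50, 6.97 and 7.65 CPM in MD + Veh and 9.34, 6.15, 4.17, 12.2 and 5.57 CPM in MD + PE. One CD + PE liver was above all others in the study while 3 of that group were below every CD + Veh liver. The log2 difference after PE on CD was -0.44 (SE 0.457, adjusted p = 0.687). Without CD + PE replicate 1, the liver at 21.4 CPM and also the CD + PE library with the most muscle marker signal, it was -1.29 (adjusted p = 0.0434) and Gadd45a was called lower. The other 4 differences of Gadd45a lay between -0.49 and -0.05, and none was called. That of the diet under PE, -0.05, was 0.81 without the same liver.

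Gadd45b, the member linked in liver to regeneration and inflammatory signals, is on chr10:80764523-80768038, plus strand, and stood on only 2 to 33 counts per library. Its levels ran from 0.573 to 2.05 CPM in CD + Veh, 0.166 to 1.58 in CD + PE, 0.614 to 1.08 in MD + Veh and 0.522 to 1.99 in MD + PE, and all groups overlapped. The log2 differences were -0.85 after PE on CD (95% interval -1.86 to 0.16) and -0.73 for the diet (95% interval -1.71 to 0.24). Neither was called.

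Cdkn1a, which encodes the cell cycle inhibitor p21, was the member with the largest called change, and it is on chr17:29309936-29319701, plus strand. The CD + Veh livers held 2.80, 0.931, 0.470 and 2.36 CPM of Cdkn1a, and the CD + PE livers 2.91, 6.23, 3.00, 1.31 and 3.06 CPM. The MD + Veh livers held 7.54, 14.0, 7.91, 4.41 and 2.32 CPM, and the MD + PE livers 8.13, 9.09, 2.17, 26.1 and 10.3 CPM. In each MD group 4 livers were above all CD + Veh livers, and 1 in each lay inside their range, so that the groups overlapped. The count behind these levels was low, from 7 counts in a CD + Veh library to 380 in MD + PE replicate 4.

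The mean of Cdkn1a rose from 1.64 ± 1.11 CPM in CD + Veh (SD, n = 4) to 7.24 ± 4.43 in MD + Veh and 11.2 ± 8.91 in MD + PE (n = 5 each). The log2 fold change was 2.13 for the diet (95% interval 0.79 to 3.47, adjusted p = 0.0320) and 2.76 for diet and PE together (95% interval 1.40 to 4.11, adjusted p = 0.00491). PE alone gave 1.00 on CD (95% interval -0.37 to 2.37, adjusted p = 0.470) and 0.62 on MD (95% interval -0.49 to 1.74, adjusted p = 0.630), and neither was called. The value on CD was 0.05 with the clock score and 2.55 with the library number division, and on MD 0.83 and 1.74. Under PE, the diet difference was 1.76 (95% interval 0.57 to 2.95, adjusted p = 0.0692), past the limit with DESeq2 (adjusted p = 0.0477). It was also past the limit without CD + PE replicate 2 (2.12, adjusted p = 0.0339) or MD + PE replicate 3 (2.02, adjusted p = 0.0272). CD + PE replicate 2, with the most Cdkn1a of its group, is the liver with the macrophage marker signal, whose part in the value was not tested. The diet call in vehicle livers was lost when CD + Veh replicate 2, 3 or 4 or MD + Veh replicate 2 or 3 was left out, with adjusted p between 0.0540 and 0.0924 and log2 fold changes between 1.75 and 2.36. The call for diet and PE together held in all 19 fits that left out 1 library, between 2.19 and 3.17.

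Ccng1, encoding cyclin G1, a p53 target that works with protein phosphatase 2A on Mdm2, was the member with the tightest control group, and it is on chr11:40639377-40646148, minus strand. The CD + Veh livers held 26.1, 28.1, 26.7 and 27.3 CPM, and the CD + PE livers 35.9, 35.5, 38.5, 33.7 and 30.2 CPM of Ccng1. The MD + Veh livers held 72.2, 42.8, 45.5, 43.3 and 35.1 CPM, and the MD + PE livers 35.9, 43.3, 35.2, 40.3 and 46.96 CPM. Every liver of the other 3 groups was above every CD + Veh liver, and those 3 groups overlapped with each other. No other member had groups without overlap in any comparison. Of all genes tested, 7.83% had groups without overlap for PE on CD, 16.2% for the diet, 3.57% for PE on MD, 6.18% for the diet under PE and 18.8% for diet and PE together, so that 1 of 8 members is near the share of all genes.

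The mean of Ccng1 was 27.1 ± 0.865 CPM in CD + Veh (SD, n = 4), 34.8 ± 3.06 CPM in CD + PE, 47.8 ± 14.2 CPM in MD + Veh and 40.3 ± 4.96 CPM in MD + PE (n = 5 each). Ccng1 rose by 0.82 on the log2 scale with the diet (95% interval 0.51 to 1.14, adjusted p = 0.00112) and by 0.58 with diet and PE together (95% interval 0.26 to 0.89, adjusted p = 0.0103). Both calls held in all 19 fits that left out 1 library. The difference after PE on CD was 0.36 (95% interval 0.05 to 0.68, adjusted p = 0.203) and after PE on MD -0.25 (95% interval -0.54 to 0.05, adjusted p = 0.421). The difference between these effects was -0.61 (95% interval -1.04 to -0.18), with an unadjusted p of 0.00801 and an adjusted p of 0.362 by edgeR, and was not called. MD + Veh replicate 1, the liver at 72.2 CPM, was the library with the muscle marker signal, and it also held 307 CPM of stellate cell markers. Without it and MD + PE replicate 2, the diet change of Ccng1 was 0.64 (adjusted p = 0.000575), and the change after PE on CD was 0.376 with an adjusted p of 0.0411, just short of the fold limit.

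**Figure D3:**
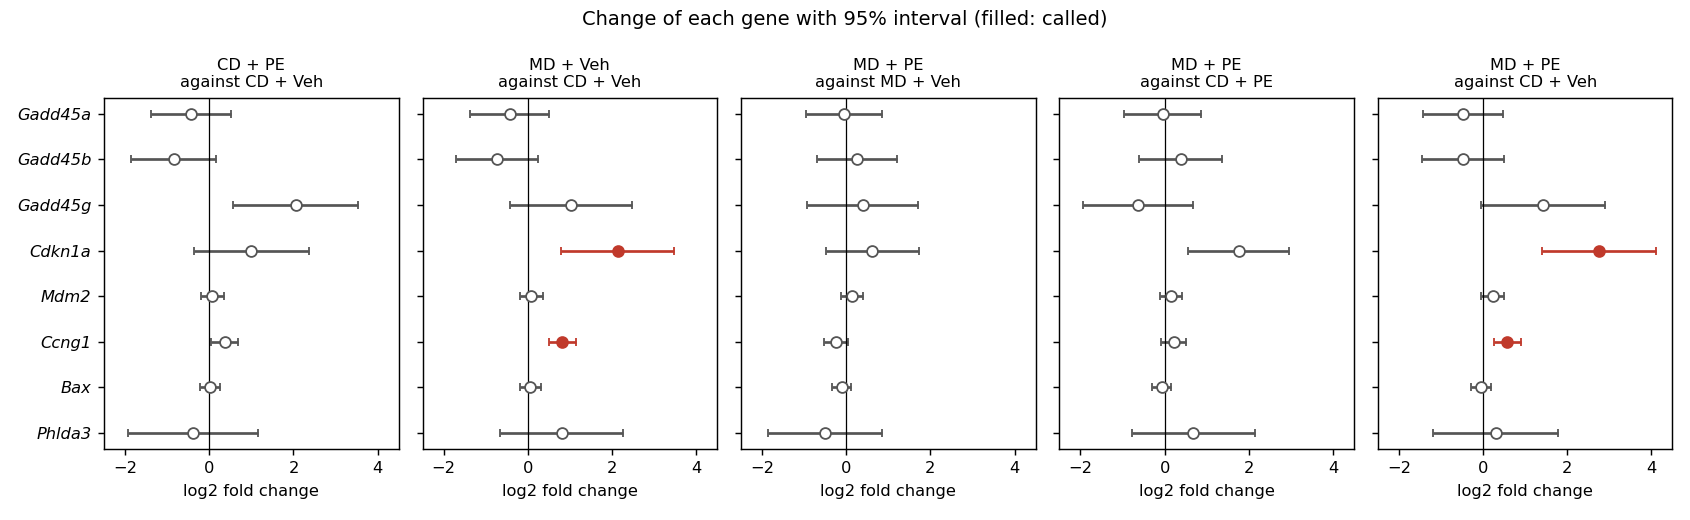
Log2 fold change of each of the 8 genes in the 5 comparisons, with 95% intervals from the edgeR fit over 19 livers and filled red points for called genes. Cdkn1a (2.13 and 2.76) and Ccng1 (0.82 and 0.58) are filled in the comparisons of the MD groups with CD + Veh, and the intervals of Mdm2 and Bax stay narrow around 0.

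Mdm2 encodes the ubiquitin ligase that marks p53 for degradation and is itself switched on by p53, on chr10:117524780-117546730, minus strand. Its levels ran from 23.2 to 32.5 CPM in CD + Veh, 23.7 to 34.8 in CD + PE, 23.2 to 36.1 in MD + Veh and 27.4 to 37.1 in MD + PE, and all groups overlapped. The log2 differences lay between 0.07 and 0.23 over the 5 comparisons, and none was called. For the diet the 95% interval was -0.19 to 0.36, and for diet and PE together -0.05 to 0.50. Both lay below the log2 fold changes of Ccng1 in the same comparisons. For diet and PE together the intervals of Mdm2 and Ccng1 overlapped, and the difference between these genes was not tested.

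Of the genes that promote cell death, Bax, which opens the outer mitochondrial membrane, is on chr7:45111015-45116325, minus strand. It ran from 13.9 to 18.6 CPM in CD + Veh, 13.8 to 18.0 in CD + PE, 14.3 to 18.3 in MD + Veh and 13.6 to 19.02 in MD + PE. Its log2 differences were between -0.11 and 0.06, with a 95% interval of -0.18 to 0.30 for the diet and -0.22 to 0.26 for PE on CD. Bax thus had among the narrowest intervals of the 8 genes and overlapped in every comparison.

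Phlda3, a p53-induced repressor of Akt signalling, is on chr1:135693809-135697686, plus strand, and stood on 3 to 90 counts. It was at 1.68, 1.43, 0.805 and 0.674 CPM in CD + Veh, 1.33, 0.614, 0.265, 0.904 and 1.28 CPM in CD + PE, 5.70, 1.55, 1.91, 0.464 and 0.309 CPM in MD + Veh and 0.813, 1.35, 0.609, 3.71 and 0.449 CPM in MD + PE. Single livers carried the means of both MD groups, MD + Veh replicate 1 at 5.70 CPM and MD + PE replicate 4 at 3.71 CPM. The log2 difference for the diet was 0.80 (95% interval -0.66 to 2.26, adjusted p = 0.481), and none of the 5 comparisons called Phlda3. Without MD + Veh replicate 1 it was -0.08, and the difference after PE on MD turned from -0.51 to 0.40. Without MD + PE replicate 4, the diet difference under PE turned from 0.68 to -0.11 and that of diet and PE together from 0.30 to -0.48. With the library number division, PE on CD went from -0.39 to 2.57 and PE on MD to 1.85, not called. These same livers had the highest summed levels of 4 stellate cell markers, 307 CPM in MD + Veh replicate 1 and 378 CPM in MD + PE replicate 4, against at most 162 CPM in CD + Veh. MD + PE replicate 4 also had the highest Cdkn1a of all livers. MD + Veh replicate 1 was also the library with 3654 CPM of skeletal muscle markers. The part of stellate cells or of muscle in these values was not tested.

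The gene of p53 itself, Trp53, was called in none of the comparisons. Its mean was 13.4 ± 1.09 CPM in CD + Veh (SD, n = 4), 15.5 ± 1.42 CPM in CD + PE, 14.1 ± 1.33 CPM in MD + Veh and 13.3 ± 1.28 CPM in MD + PE (n = 5 each). The log2 difference was 0.21 after PE on CD (adjusted p = 0.255), 0.07 for the diet (adjusted p = 0.683) and -0.22 for the diet under PE (adjusted p = 0.153). Of 18 listed regulators of p53, 15 were tested. Prkdc, the catalytic subunit of the DNA-dependent protein kinase, rose by 0.45 with the diet (adjusted p = 0.0480) and by 0.43 with diet and PE together (adjusted p = 0.0481). These were the only calls on that list in any comparison, 1 of 15 each, where 4.74% and 6.02% of all genes were called higher. The listed regulators had a median log2 fold change of -0.06 for the diet.

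A list of 18 genes was drawn up around the Gadd45 proteins, such as PCNA and the kinases of the p38 and JNK routes. Not all of them encode binding partners, and 16 were tested. The diet called 2 of them, both lower, where 5.63% of all genes were called lower. Map2k6, a kinase that activates p38, changed by -0.92 (adjusted p = 0.0432) from 8.06 ± 1.92 CPM in CD + Veh (SD, n = 4) to 4.25 ± 0.655 CPM in MD + Veh (n = 5). Ppp1r15a, also named Gadd34 but not one of the Gadd45 genes, directs the dephosphorylation of eIF2 alpha. It changed by -0.67 (adjusted p = 0.00782) from 15.0 ± 2.91 to 9.45 ± 1.88 CPM. None of the 16 was called in the other comparisons, where 1 to 4 of them had an unadjusted p below 0.05 by edgeR.

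A wider list of 38 p53 targets outside the 8 genes had 35 members tested. PE on CD called 1 of them higher and 1 lower, where 1.22% of all genes were called higher and 1.70% lower. The diet called 6 higher and 1 lower, against 4.74% and 5.63% of all genes. PE on MD called 0 higher and 1 lower, against 0.147% and 0.934%. The diet under PE called 3 higher and 1 lower, against 1.69% and 2.92%, and diet and PE together called 7 higher and 2 lower, against 6.02% and 8.55%. The interaction called 0, with 5 at an unadjusted p below 0.05 by edgeR, and DESeq2 called 1. The median log2 fold change of the list was 0.09, 0.14, 0.01, 0.05 and 0.14 in these 5 comparisons.

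Ephx1, microsomal epoxide hydrolase, a detoxifying enzyme also induced through the receptors for foreign compounds, had the clearest steps of the list. It stood at 107, 112, 137 and 115 CPM in CD + Veh and at 207, 227, 249, 215 and 190 CPM in CD + PE. The MD + Veh livers held 273, 314, 339, 329 and 279 CPM and the MD + PE livers 361, 352, 348, 341 and 371 CPM. No 2 neighbouring groups in this order overlapped. Ephx1 rose by 0.89 after PE on CD (SE 0.0892, adjusted p = 8.22e-05), by 1.38 with the diet (adjusted p = 3.52e-08) and by 1.59 with both (adjusted p = 1.52e-09). After PE on MD the difference was 0.21 (SE 0.0821, adjusted p = 0.214) and was not called. The effect of PE differed between the diets by -0.68 (SE 0.120), with an adjusted p of 0.142 by edgeR and of 0.000325 by DESeq2.

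Gls2, mitochondrial glutaminase of the liver, went the other way. It stood at 279, 364, 363 and 312 CPM in CD + Veh, 269, 210, 259, 285 and 203 CPM in CD + PE, 247, 191, 213, 231 and 235 CPM in MD + Veh and 145, 122, 140, 104 and 132 CPM in MD + PE. Every MD + PE liver was below every liver of the other groups. Gls2 was the 1 gene of the list called for PE on MD, at -0.79 (SE 0.112, adjusted p = 0.00114), and it was -0.42 for PE on CD (adjusted p = 0.0496). With diet and PE together it was -1.35 (adjusted p = 1.48e-07). The interaction of Gls2, -0.37, was not called (adjusted p = 0.533).

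Sulf2, which trims sulphate groups from heparan sulphate, and Fas, the death receptor, rose with the diet. Sulf2 was at 11.8 ± 2.51 CPM in CD + Veh (SD, n = 4) and 11.1 ± 3.16 in CD + PE, and at 24.9 ± 4.72 in MD + Veh and 22.2 ± 2.55 in MD + PE (n = 5 each). Fas was at 10.6 ± 0.738 and 12.4 ± 1.01 CPM in the CD groups and at 17.3 ± 2.68 and 17.02 ± 0.822 CPM in the MD groups. In vehicle livers Sulf2 rose by 1.08 (adjusted p = 0.000690) and Fas by 0.70 (adjusted p = 0.000119), and under PE by 0.99 (adjusted p = 0.00181) and 0.46 (adjusted p = 0.00527). Pmaip1, which encodes the pro-apoptotic protein Noxa, rose by 1.11 with the diet (adjusted p = 0.0272) and by 1.1 with diet and PE together (adjusted p = 0.0218), from 6 to 31 counts per library in the 3 groups. The remaining called genes were Dcxr and Aen for the diet, both higher, and Fas, Zmat3, Aen, Triap1 and Fdxr for diet and PE together. They were named after their values were seen. Of these, only Fdxr was called lower, from a mean of 21.3 CPM in CD + Veh to 15.4 CPM in MD + PE.

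**Figure D4:**
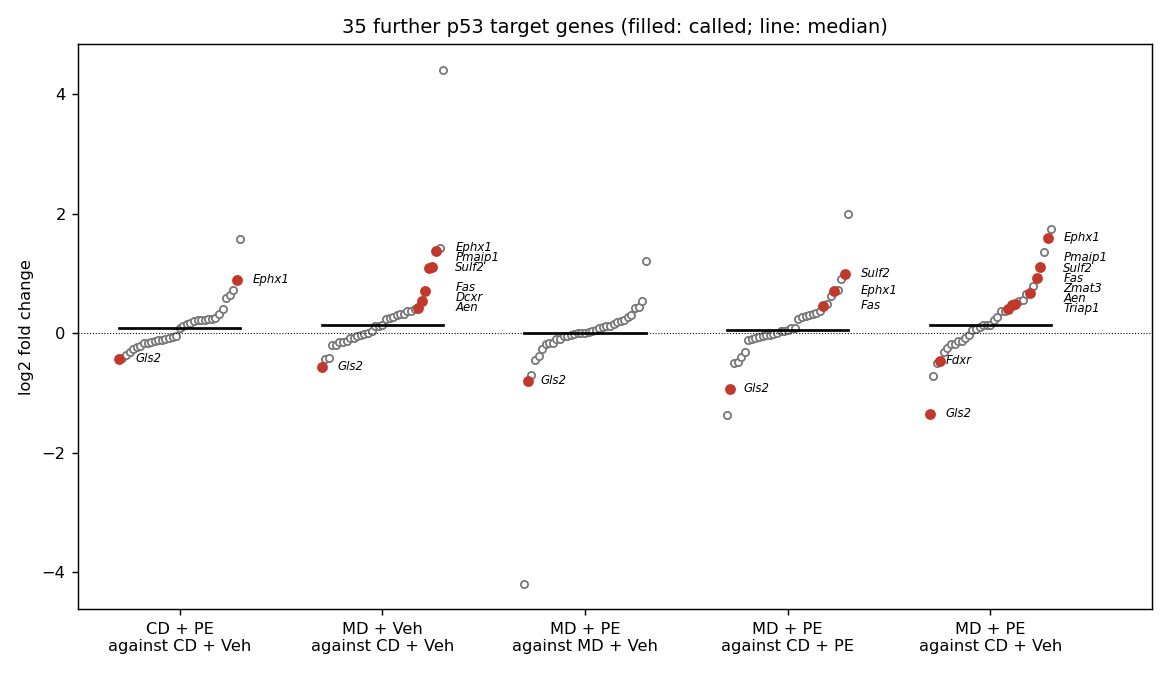
Log2 fold change of the 35 tested genes of the wider p53 target list in the 5 comparisons, 1 point per gene sorted within each comparison, with called genes filled and named and the median of the list as a black line. The medians lie between 0.01 and 0.14, Ephx1 is called in 4 comparisons and Gls2 in all 5. The open points at 4.41 and -4.19 are Ak1.

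The farthest points of the list were those of Ak1, adenylate kinase 1, a gene that muscle also uses, named here after its values were seen. Ak1 was at 39.99 CPM in MD + Veh replicate 1, the library with 3654 CPM of muscle markers, and at no more than 5.73 CPM in any other liver. Its log2 difference was 4.41 for the diet (adjusted p = 0.0533) and -4.19 for PE on MD (adjusted p = 0.124), neither called.

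A clock score also moved with the groups. It is the mean log2 CPM of 5 clock genes, Bmal1 among them, minus that of 8 genes of the opposite phase, such as Dbp and Per2. The score ran from -4.21 to -2.90 in CD + Veh and from -2.83 to 0.68 in CD + PE, and on MD from -1.97 to -0.01 with vehicle and from -1.82 to 0.02 with PE, so that CD + Veh overlapped with no other group. Within MD + Veh, replicates 4 and 5 had the lowest scores, -1.25 and -1.97, and also the lowest Gadd45g, Cdkn1a and Phlda3. Because of that gap, a fit with the score as a term cannot tell score and group apart in comparisons with CD + Veh. In that fit the diet difference of Cdkn1a was 0.86 (SE 0.947, adjusted p = 0.699). That of Ccng1 was 0.71 (SE 0.231, adjusted p = 0.104). For diet and PE together they were 1.70 (adjusted p = 0.241) and 0.48 (adjusted p = 0.192), and 0 members were called in either comparison. Ephx1 and Fas kept their diet calls in this fit, as the 2 genes of the wider list called.

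**Figure D5:**
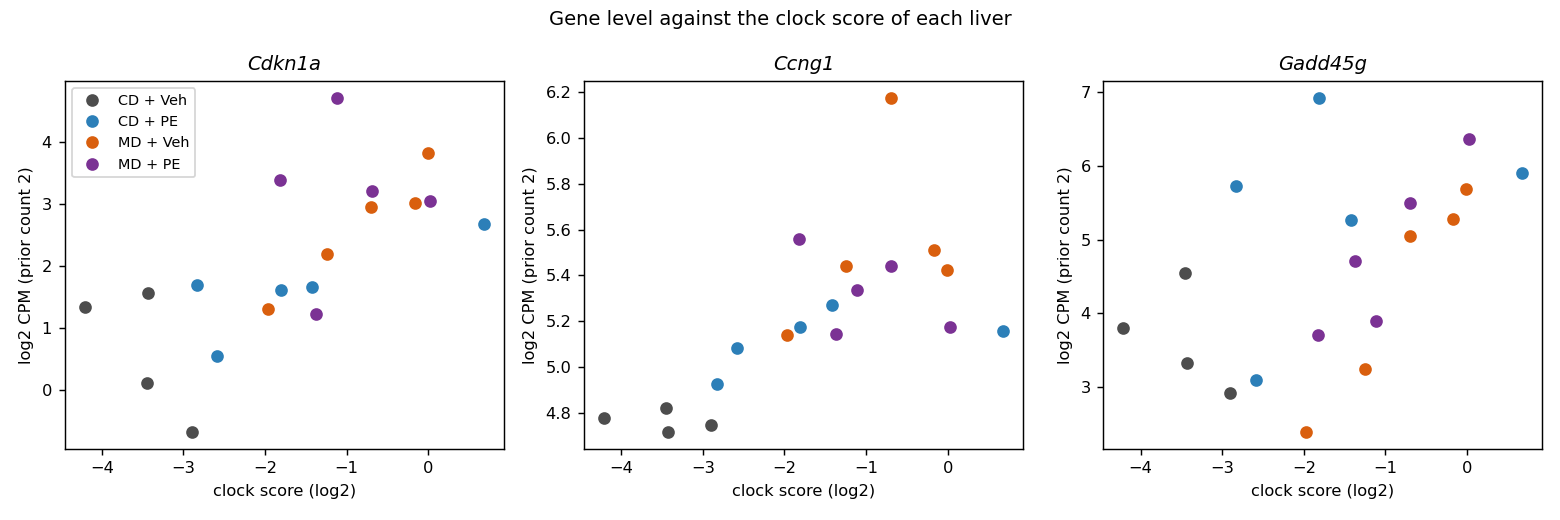
Log2 CPM (prior count 2) of Cdkn1a, Ccng1 and Gadd45g against the clock score (log2) of each of the 19 livers, coloured by group. The CD + Veh livers stand alone at the left, below a score of -2.83, and carry the lowest Ccng1 of all livers.

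The levels of the members had little in common across the 19 livers. Over the 28 pairs of members, Pearson's r of log2 CPM ran from -0.544 for Gadd45b with Gadd45g to 0.651 for Cdkn1a with Ccng1, and the latter was 0.317 once group means were removed. The genes most like a member were sought among the 9387 tested genes whose mean reached 5 CPM. For Cdkn1a they were Tgfbi (r = 0.902), Chmp2b (r = 0.877) and Plekha1 (r = 0.871), and for Gadd45g they were Nav2 (r = 0.834), Phlda1 (r = 0.789) and Arid1a (r = 0.784). For Gadd45b they were Cln8 (r = 0.857), Mmadhc (r = 0.768) and Armcx3 (r = 0.757), and for Gadd45a they were Pdgfa (r = 0.777), Spred2 (r = 0.758) and Pcnx4 (r = 0.758). With group means removed these 12 values were between 0.70997 and 0.895. They describe 19 libraries that differ in group and depth, and each was picked as among the highest of many.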

How the data were processed

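Bulk liver poly(A) RNA-seq of 19 mice was analysed from the count table alone. The authors trimmed reads with fastp 0.23.4, quantified transcripts of GRCm39 (GENCODE) with Salmon 1.10.3 and used tximport to reach gene level. The deposited table gives these estimated counts, made by the authors, in whole numbers without normalization or filter, with 0 columns left unused. Groups came from the sample labels. Diet, dose and ages came from the study's methods.

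Tests were run with edgeR 4.0.16 under R 4.3.3: TMM, filterByExpr by group, 1 coefficient per group over all 19 libraries, and glmQLFTest. P-values were adjusted by Benjamini-Hochberg over 13597 genes. SEs were derived from the F statistic, and 95% intervals used 18.97 degrees of freedom. Correlations used log2 CPM with a prior count of 2. DESeq2 1.42.0 was an alternative, as were normalization, filters, dispersion, covariates, equal depth and leaving out libraries. The fit was tested on simulated counts, with 200 genes set to change by 1.5 (log2) up or down in each comparison. Between groups it called 80.5% to 83% of them, and 68% for the interaction, with 3 to 12 false calls. A gene not called may thus still have changed. The 8 genes, the lists and the clock score were chosen with earlier results of these data known, so no list test was run. All members were named, with Trp53, the called genes of each p53 or Gadd45 list (at most the 4 largest per comparison), and the 3 genes most like Cdkn1a and each Gadd45 gene.

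With 10398820 to 15456729 counts per library, a gene at 1 CPM rests on few counts, and its level is imprecise. Where Salmon divides reads between similar transcripts, counts are estimates. Salmon quantifies transcripts by strand as detected, and the library kit was stranded.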

Additional observations from a re-analysis of the deposited data

Results flagged for a closer look

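Of 32 groups of 4 or 5 livers examined, 8 genes in 4 groups, 5 held a liver far from the others by Dixon's ratio of its gap to the group's range. Chance gives about 1 in 20 for normally distributed values in independent groups. These groups are not independent, since the 8 genes share the same livers, so the count cannot be read against that rate.

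Gadd45a stood at 21.4 CPM in CD + PE replicate 1, with the next liver of that group at 7.83 CPM. Ccng1 stood at 72.2 CPM in MD + Veh replicate 1, with the next at 45.5 CPM. In MD + PE replicate 4, Gadd45b stood at 1.99 CPM with the next at 0.898 CPM, Bax at 19.02 CPM with the next at 14.7 CPM, and Phlda3 at 3.71 CPM with the next at 1.35 CPM. The first of these libraries held 494.7 CPM of skeletal muscle markers, the second 3654 CPM, and MD + PE replicate 4 held 378 CPM of stellate cell markers, the highest of all livers. The part of other cells in these values was not tested.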

How the results depend on the processing

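Of 1496 comparisons of a member's value with its value under another setting or with 1 library left out, 1421 kept their direction and side of the limits, 11 lost a call, 7 gained one and 0 called values reversed. In the other 57 the sign changed while the gene was called in neither fit, as for Gadd45g with the clock score (-1.11 for the diet and -0.56 for diet and PE together). The cause of these changes was not tested. For the diet in vehicle livers, 2 members were called, 1 with robust dispersion, 1 without both libraries rich in muscle or intestinal markers, 0 with the clock score and 1 to 2 with 1 library left out. For diet and PE together, 2 became 0 with the clock score. For the diet under PE, 0 became 1 (Cdkn1a) with DESeq2 and with the library number division, and 0 to 1 with 1 library left out, and for PE on CD 0 to 1 (Gadd45a). With the division, a term that only the MD + Veh livers set, Gadd45g reached 3.92 for diet and PE together (adjusted p = 0.0344).

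On the wider list, PE on CD called 2, and 1 (Ephx1, without Gls2) with no filter, with only the 2 groups, with the replicate block, the division, the clock score, equal depth, or without both libraries of other tissue, and 1 to 2 with 1 library left out. The diet called 7, 2 with the clock score and 4 to 9 with 1 library left out, with 4 without CD + Veh replicate 4. Diet and PE together called 9, 3 with the division, 5 with the clock score. The interaction called 0, and 1 (Ephx1) with DESeq2, the replicate block, the division and without CD + Veh replicate 3, so 0 to 1 with 1 library left out. Replicate numbers were not shown to pair mice: over 27 pairs sharing a number the median correlation of deviations was 0.0293, and 6 exceeded 0.1. With the replicate block the same numbers of members were called, and diet and PE together called 11 of the wider list. Gadd45b, Phlda3 and Cdkn1a rest on fewer than 10 counts in some libraries. For the diet in vehicle livers, library numbers up to 45 alone called 3 members (Cdkn1a, Ccng1 and Gadd45g). This restriction leaves out the MD + Veh livers with the least Cdkn1a and Gadd45g, so these calls are no separate check. Numbers above 45 alone leave other comparisons, PE on MD and the diet under PE, and called 0 members in both, as did all libraries.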
